A study of Saccharomyces cerevisiae with 12 samples.

Results

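Chromatin accessibility in budding yeast cells labelled as carrying an Abf1 variant with a shuffled essential motif (EM shuffle) was compared with that in cells carrying wild-type Abf1 (WT Abf1), along all 6002 nuclear protein-coding genes and in tiles of 1 kb. The comparison took the 4 libraries of each construct, so 8 of the 12 libraries in the series, chosen by their labels alone. The other 4 libraries came from cells with the empty plasmid (no Abf1) and are given beside the results for reference. The 4 chromatin preparations compared, 2 biological replicates per construct, were each sampled after 3 h and 4 h of methylation.

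All cells were of a strain labelled BY4741 with the genotype ABF1-aa-V5 clone A9, which is a single clone of an anchor-away line. In such a line the chromosomal Abf1 carries a tag that rapamycin links to an abundant ribosomal protein, so that the tagged protein is carried out of the nucleus. Every culture, the WT Abf1 culture included, was grown in medium without leucine and treated with 8 µg/mL rapamycin for 75 min, and what differed was the pRS315 plasmid. It encoded full-length Abf1 in the WT Abf1 cells, and nothing further in the no Abf1 cells. In the EM shuffle cells, by the study's methods, it encoded a protein with the DNA-binding domain of Abf1 that lacks the first disordered region and carries the second with the residues of its essential motif in shuffled order. Replicates were grown from separate transformants. The WT Abf1 and EM shuffle libraries carry different batch labels, and no Abf1 shares that of WT Abf1, so EM shuffle and batch cannot be told apart.

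Abf1 is a general regulatory factor: it binds many promoters, helps to keep nucleosomes off them, and sets the position from which the nucleosomes over the gene are counted. A typical yeast gene has a nucleosome-depleted stretch upstream of its start codon and a regular array of nucleosomes over its body. In ODM-seq (occupancy measurement by DNA methylation) the bacterial enzyme M.SssI methylates the cytosine of CG dinucleotides (CpG sites) wherever neither nucleosomes nor other proteins block it, in chromatin fixed with formaldehyde, and Nanopore sequencing reads which cytosines are methylated. A high methylation level therefore stands for accessible DNA. The deposited levels of the EM shuffle libraries had been divided by a correction factor of 0.871. By the study's methods the factor is the genome average methylation of a construct over that of WT Abf1. It was brought in because slight batch effects were seen in those averages. Division by it therefore brings the genome averages of the constructs close together. Levels are given here without that division, as the percent of calls at a site that were methylated, and with it where stated.

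Coverage of marker loci went against the label of the variant. Relative to its flanks, coverage of ABF1 was 2.08 and 1.98 in the WT Abf1 replicates, 1.14 and 1.11 in the libraries labelled EM shuffle, and 1.02 and 0.992 in the no Abf1 replicates. In stretches of 200 bp along its coding sequence it ran from 1.77 to 2.25 in WT Abf1 and from 0.887 to 1.11 in no Abf1. In the libraries labelled EM shuffle it ran from 1.03 to 1.22, so no stretch of ABF1 showed the added copy that WT Abf1 showed. In every stretch, both replicates labelled EM shuffle still lay a little above both no Abf1 replicates. LEU2, the plasmid marker, was covered at 0.590 and 0.614 of the nuclear median in WT Abf1 and at 0.815 and 1.01 in no Abf1, but at 0.112 and 0.229 in the libraries labelled EM shuffle. Neither gene thus showed the plasmid that the label names at the level of the other constructs. EM shuffle below stands for the libraries with that label, every difference is one between libraries so labelled, and whether their cells carried the variant cannot be told from these values. FPR1, which anchor-away strains usually lack, was covered at 0.176 to 0.301 of the nuclear median in the 6 preparations. Median coverage was 43 to 70 calls per CpG site in the WT Abf1 libraries and 32 to 60 in the libraries labelled EM shuffle, and 353646 nuclear CpG sites had at least 5 calls in every library.

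Along the average gene, methylation was lower in the libraries labelled EM shuffle at nearly every distance from the start codon, and the shape of the profile was kept. The profile was taken in bins of 10 bp, and each bin is given as the mean over 5 neighbouring bins. At the promoter peak, the bin that begins 140 bp upstream of the start codon, methylation was 59.4% and 57.7% in the WT Abf1 replicates. It was 55.3% and 55.5% in the EM shuffle replicates. The mean difference was -3.13 percentage points (58.5% ± 1.20 against 55.4% ± 0.101, SD, n = 2). The gene body was taken here as 150 to 999 bp downstream, also where the coding sequence ended sooner. Methylation over it was 26.6% and 23.9% in WT Abf1 and 21.8% and 21.1% in EM shuffle, a difference of -3.76 points. The replicates of the constructs did not overlap in either measure. With 2 replicates against 2, an exact two-sided permutation test cannot give a p below 0.333, which was the value for both.

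**Figure D1:**
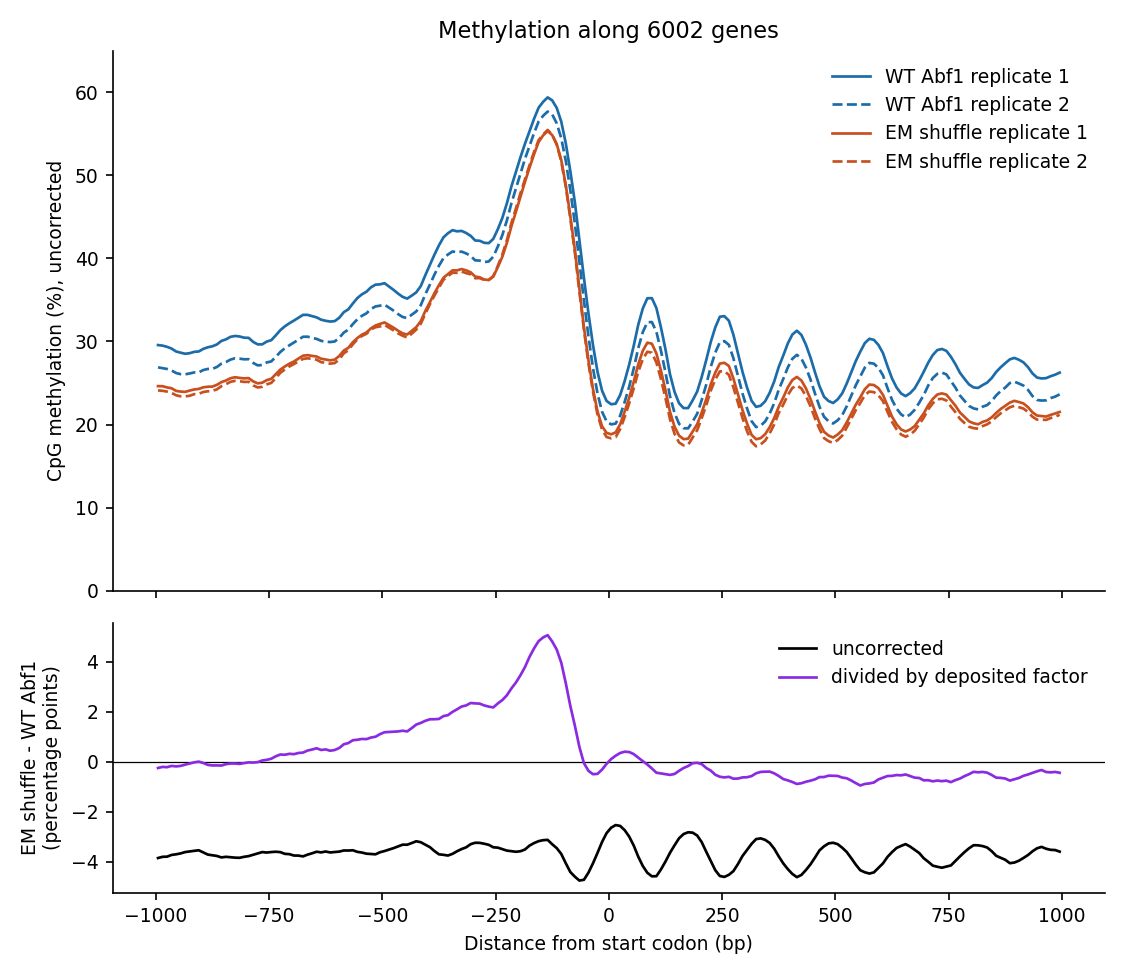
Mean CpG methylation (percent, without the correction factor) by distance from the start codon (bp) over 6002 genes, 1 line per biological replicate, and below it the mean of EM shuffle minus that of WT Abf1 in percentage points with and without the deposited factor. Each bin of 10 bp is drawn as the mean over 5 neighbouring bins. EM shuffle lies below WT Abf1 without the factor. With the factor the promoter peak lies 5.05 points above WT Abf1 while the gene body lies 0.589 points below.

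The stretch from 1000 bp upstream to 999 bp downstream held 200 such averaged bins of 10 bp, and neighbouring bins share values. In 193 of them all 4 EM shuffle libraries lay below all 4 WT Abf1 libraries, and in 0 above. The loss was not an equal share of the level everywhere. EM shuffle kept 0.946 of the WT Abf1 level at the promoter peak but 0.841 at the lowest bin of the gene body. On the log2 odds scale, in which the odds are methylated over unmethylated calls, the difference ran from -0.33 to -0.18 over the bins. Division by the factor, which raises every EM shuffle level in proportion, therefore left the bins in different places. The promoter peak rose to 63.6% and lay 5.05 points above WT Abf1, so the sign of the promoter difference depends on the factor. In the corrected values 11 of the 200 bins had all 4 EM shuffle libraries above all 4 WT Abf1 libraries, each of them between 250 and 51 bp upstream, and 0 had them below.

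The nucleosome array over the gene was in the same place in both constructs. Accessible linkers, the peaks of methylation between nucleosomes, were centred 255, 415 and 575 bp downstream of the start codon in all 4 replicates. The first linker was centred at 95 bp in both WT Abf1 replicates and at 85 bp in both EM shuffle replicates, and the 10 bp between them are 1 bin. Both no Abf1 replicates also had it at 85 bp. The height of linkers over nucleosome centres was 9.96 and 9.49 points in WT Abf1 and 8.38 and 8.06 points in EM shuffle, a mean difference of -1.50 points (exact permutation p = 0.333). After division by the factor that difference was -0.287 points.

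Initial accessibility was taken from WT Abf1, and 1 kb tiles and promoter windows (bases -250 to -51 relative to the start codon) were each split into 10 equal groups (deciles) by it. Among tiles, the least accessible decile had 17.6% methylation in WT Abf1 and 14.7% in EM shuffle, and the most accessible decile had 45.3% and 41.4%. EM shuffle kept 83.3% of the WT Abf1 level in the lowest decile of tiles and 91.4% in the highest. Among promoter windows it kept 87.1% in the lowest decile, where WT Abf1 had 18.6%, and 96.3% in the highest, where WT Abf1 had 79.0%. In points, the difference ran from -2.40 to -4.45 across the deciles of promoters, and the largest loss stood in the fifth decile. WT Abf1 and EM shuffle libraries were apart in every decile of tiles, and they overlapped in the lowest and in the ninth decile of promoters.

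**Figure D2:**
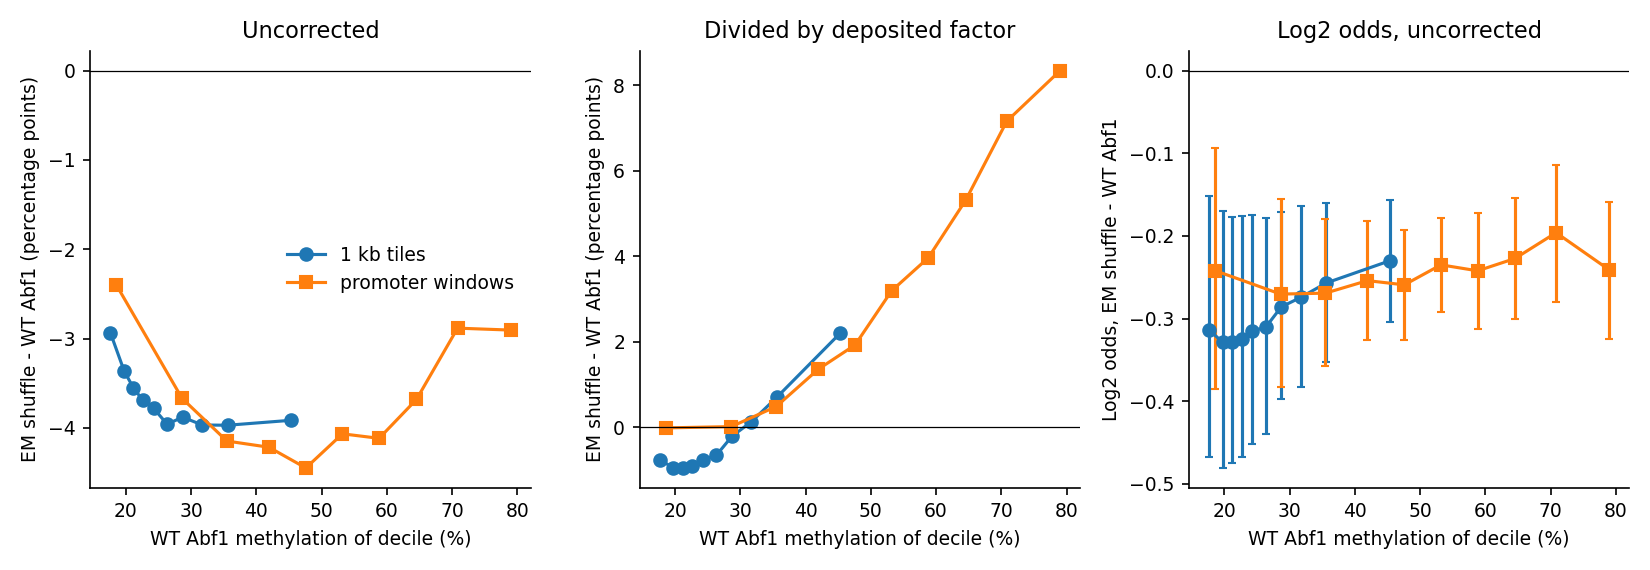
EM shuffle minus WT Abf1 for deciles of 1 kb tiles (circles) and of promoter windows (squares), plotted at their mean WT Abf1 methylation (percent), without the factor (left, percentage points), with it (middle, percentage points) and as log2 odds (right, bars span the lowest and highest of the 4 pairs of replicates). The corrected difference rises with accessibility to 8.34 points in the highest decile of promoters, whereas the log2 odds stay between -0.33 and -0.20.

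In corrected values the difference rose with accessibility: it was -0.0139 points in the lowest decile of promoters and 8.34 points in the highest, and the libraries stood apart in the upper 5 deciles. Tiles went from -0.764 to 2.21 points, and the libraries overlapped in every decile. On the log2 odds scale the most accessible decile of tiles differed from the least accessible decile by 0.08 more in EM shuffle than in WT Abf1 (1.9 and 2.01 in the WT Abf1 replicates, 2.00 and 2.07 in EM shuffle). The replicates overlapped and the exact permutation p was 0.667. WT Abf1 values entered both the grouping and the difference, which was 0.17 when tiles were grouped by replicate 2 and measured in replicate 1, and 0.055 the other way round.

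No chromosome stood out in its mean difference. The mean difference per chromosome ran from -3.78 points on chromosome I to -3.57 points on chromosome XII, and the libraries of the constructs were apart on all 16. After division by the factor they overlapped on all 16, which is no separate result. The factor brings the genome averages together, and the differences per chromosome were close to each other. Chromosome XI was covered at 1.17 and 2.02 of the nuclear median in the EM shuffle replicates and at 0.992 to 1.02 in the other 4 preparations. Its difference of -3.59 points lay 0.115 points above that of the other chromosomes (exact permutation p = 0.333).

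To find single genes that departed from the general loss, calls in each window, methylated against unmethylated, were tested in a quasi-binomial logistic model with the genome average of each construct taken out, which was -0.28 log2 odds for EM shuffle against WT Abf1. Log2 odds ratios below are relative to that average, unless said otherwise. In promoter windows 65 of 5846 were called at an adjusted p under 0.05 (1.11%), of which 31 were higher and 34 lower in EM shuffle. Start windows, from 50 bp upstream to 149 bp downstream of the start codon and so over the first nucleosome, gave 24 calls of 5876 (0.408%), 9 higher and 15 lower. Gene body windows gave 10 of 5763 (0.174%), and 1 kb tiles 46 of 12060 (0.381%). Called promoters covered 62 distinct stretches, since divergent genes share a window. With the average taken out, the 4 EM shuffle libraries lay wholly on one side of the 4 WT Abf1 libraries in 55 of the 65 called promoters. Over all 5846 promoter windows they lay wholly above in 275 and wholly below in 158. The calls were made on these same values, so the separation adds no support to them.

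Taking out the average decides most rises. With it left in, 542 promoter windows were called, 528 of them lower and 14 higher, and 84.9% of all promoter windows had a lower level in EM shuffle. All 34 promoters called lower were called lower then too, but only 14 of the 31 called higher were. In start windows all 15 lower calls and 3 of the 9 higher calls were made both ways. The median over all promoter windows was 0.06 log2 odds with the average taken out. Against no Abf1, the libraries labelled EM shuffle differed in 674 promoter windows (11.5%) and in 187 start windows (3.18%).

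The largest falls and rises were taken only from called windows whose libraries did not overlap between the constructs, with the average taken out. Separation of the libraries in them was thus set by that choice. The largest losses of accessibility among the promoters named were at ZRT1 and ZRT2, genes of zinc uptake. In yeast short of zinc, the activator Zap1 binds zinc-responsive elements in the promoters of ZRT1, the high-affinity zinc transporter, of ZRT2, the low-affinity transporter, and of its own gene ZAP1. ZRT1 (YGL255W, chromosome VII, promoter window 20728 to 20927 in R64, 5 CpG sites) gave 46.2% and 53.9% methylation in the 3 h and 4 h libraries of the first WT Abf1 replicate and 40.5% and 47.3% in those of the other. In EM shuffle it had 12.4% and 13.9%, and 10.2% and 13.3%. The means were 46.1% in WT Abf1 and 12.6% in EM shuffle. The log2 odds ratio was -2.25 ± 0.21 (SE, n = 2 replicates each, adjusted p = 3.37e-07).

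In ZRT2 (YLR130C, chromosome XII, 404113 to 404312, 6 CpG sites) the WT Abf1 libraries had 50.1% and 44.2%, and 48.0% and 60.2%, and the EM shuffle libraries 22.8% and 23.3%, and 20.3% and 22.6%. The log2 odds ratio was -1.56 ± 0.18 (adjusted p = 6.82e-06). ZAP1 (YJL056C, chromosome X, 333124 to 333323, a window shared with the divergent gene LOG1) had 43.6%, 49.4%, 41.0% and 40.5% in WT Abf1 and 23.8%, 23.9%, 32.8% and 30% in EM shuffle. Its log2 odds ratio was -0.79 ± 0.18 (adjusted p = 0.0258). The calls of ZRT1 and ZRT2 held in all 4 fits that each left out 1 replicate, whereas ZAP1 was called in 1 of the 4, and without EM shuffle replicate 1 it had -0.48 log2 odds with an adjusted p of 0.496.

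The promoter windows of both transporters are shown, 5′ to 3′ along the coding strand from base -250 to base -51, because the loss was largest in them and differed along the window. Capitals mark a match to the Zap1 element as searched on both strands, ACCTT and AAGGT with 1 base between them, which 0.0855% of promoter windows hold.
ZRT1: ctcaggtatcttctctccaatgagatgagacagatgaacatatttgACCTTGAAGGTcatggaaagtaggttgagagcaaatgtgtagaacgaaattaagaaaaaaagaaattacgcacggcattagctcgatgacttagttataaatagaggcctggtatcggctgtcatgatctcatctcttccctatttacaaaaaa
ZRT2: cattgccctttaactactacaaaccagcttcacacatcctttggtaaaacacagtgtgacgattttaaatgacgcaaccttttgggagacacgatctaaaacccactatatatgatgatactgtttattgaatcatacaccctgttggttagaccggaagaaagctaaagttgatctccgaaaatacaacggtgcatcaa
ZRT1 holds 1 match, from 204 to 194 bp upstream, and the ZRT2 window holds none. The loss in ZRT1 was smallest at the CpG nearest to the match. At 160 bp upstream of the start codon EM shuffle had 36.0% and 34.1% against 58.3% and 56.4% in WT Abf1, while at 121 bp upstream it had 4.3% and 3.4% against 52.2% and 42.3%. In ZRT2 the upstream sites lost most. At 178 bp upstream the EM shuffle replicates had 9.2% and 8.3% against 45.1% and 49.5%, and at 61 bp upstream 33.9% and 32.1% against 38.0% and 34.2%. ZAP1 was lower nearer to the gene: its CpG at 199 bp upstream had 63.2% and 72.0% in EM shuffle and 72.6% and 73.0% in WT Abf1, and that at 73 bp upstream 8.4% and 13.5% against 37.6% and 29.9%.

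In the start window of ZRT2 the loss went on (16.3% and 15.3% in the EM shuffle replicates against 29.4% and 38.6%, -1.21 log2 odds, adjusted p = 3.02e-05), and over its gene body it did not pass the test (22.4% and 20.5% against 27.5% and 24.5%, adjusted p = 1). No Abf1 cells had low levels at these genes too: 16.1% and 16.2% in the ZRT1 promoter, 30.6% and 36.2% in ZRT2, and 26.2% and 28.3% in ZAP1. EM shuffle did not pass the test against no Abf1 at any of the 3 (adjusted p = 0.952, 0.115 and 0.281). Of the 13 zinc genes on the list, which also holds ZRT3, FET4, ADH4, ZPS1, ZRC1 and others, 3 were called lower in the promoter, beside 0.582% of all promoter windows, and 0 higher, with a median of -0.16 log2 odds beside 0.06 over all promoters.

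**Figure D3:**
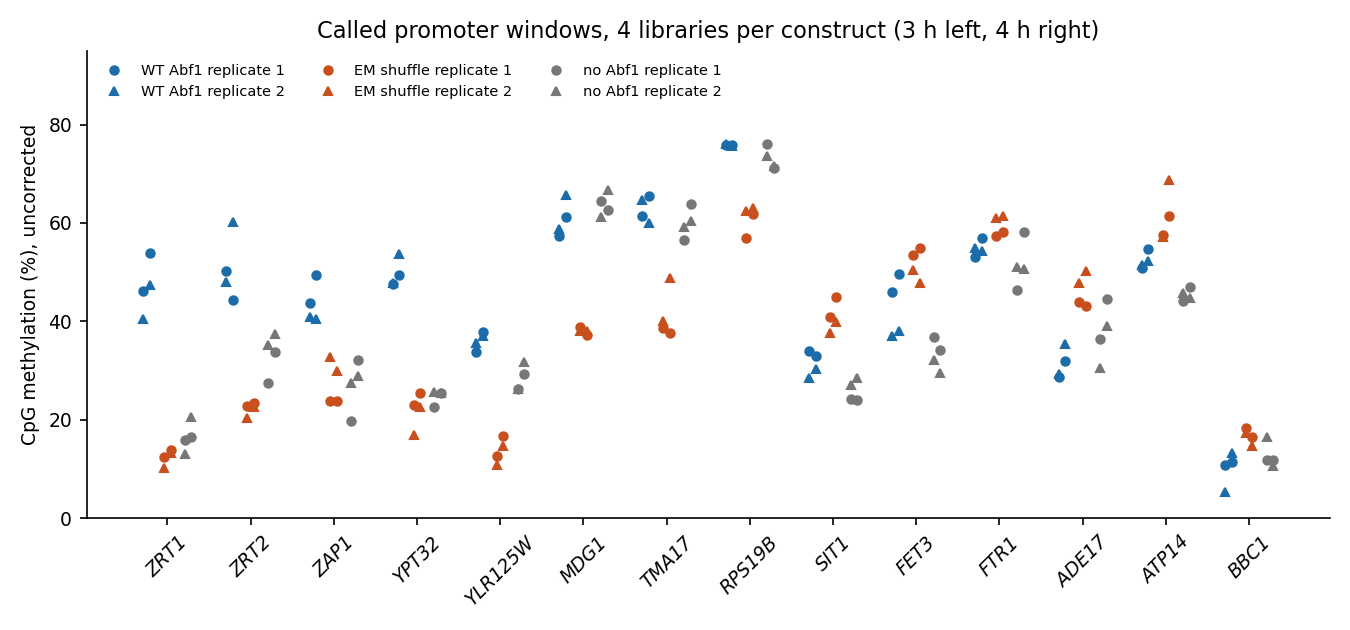
CpG methylation (percent, without the correction factor) in the promoter windows of 14 called genes, with a point for each library (circles replicate 1, triangles replicate 2, 3 h to the left of 4 h) in WT Abf1, EM shuffle and no Abf1. ZRT1 lies at 10.2% to 13.9% in EM shuffle and at 40.5% to 53.9% in WT Abf1, and MDG1 and TMA17 are lower in EM shuffle than in both other constructs.

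At 3 promoters of iron uptake genes, SIT1, FET3 and FTR1, the difference had the other sign, while most of the iron genes listed were not called. SIT1 encodes a transporter of iron-loaded siderophores, FET3 the multicopper ferroxidase and FTR1 the iron permease that works with it, and Aft1 activates them when iron is short. SIT1 (YEL065W, chromosome V, 27407 to 27606, 9 CpG sites) had 33.9%, 32.9%, 28.5% and 30.4% in the WT Abf1 libraries and 40.8%, 45%, 37.7% and 40% in the EM shuffle libraries. The lowest EM shuffle library was above the highest WT Abf1 library, with the general loss left in, and the log2 odds ratio was 0.92 ± 0.14 (adjusted p = 0.00051). FET3 (YMR058W, chromosome XIII, 388572 to 388771) had 47.7% and 37.5% in the WT Abf1 replicates and 54.1% and 48.7% in EM shuffle, 0.84 ± 0.18 (adjusted p = 0.016). In FTR1 (YER145C, chromosome V, 461791 to 461990) the replicates had 54.6% and 54.6%, and 57.6% and 61.2%, 0.54 ± 0.12 (adjusted p = 0.0167), a rise that did not pass the test with the average left in (adjusted p = 0.146).

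SIT1 is shown as the iron gene with the largest difference. Capitals mark a match to TGCACCC, the core of the Aft1 element, on either strand. This motif was searched after the values were seen, and 0.975% of promoter windows hold it.
SIT1: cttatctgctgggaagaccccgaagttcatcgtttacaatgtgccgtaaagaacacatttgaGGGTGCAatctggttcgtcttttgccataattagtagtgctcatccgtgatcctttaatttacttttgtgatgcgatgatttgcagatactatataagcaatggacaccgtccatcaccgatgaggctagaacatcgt
The match lies from 188 to 182 bp upstream. The 4 CpG sites from 230 to 173 bp upstream, on both sides of it, differed most: at 206 bp upstream EM shuffle had 56.0% and 48.9% against 35.2% and 25.2% in WT Abf1, and at 173 bp upstream 47.5% and 37.1% against 25.0% and 24.2%. At 70 bp upstream the values were 27.9% and 30.3% against 33.3% and 28.5%, which overlap.

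In no Abf1 cells the iron promoters were the lowest of the 3 constructs: SIT1 had 24.1% and 27.7%, FET3 35.3% and 31%, and FTR1 52.1% and 50.8%. Against no Abf1 the EM shuffle libraries were higher at SIT1 by 1.38 log2 odds (adjusted p = 9.02e-08), at FET3 by 1.45 (adjusted p = 7.55e-07) and at FTR1 by 0.81 (adjusted p = 9.39e-06). Of the 21 iron genes listed 3 were called higher than WT Abf1, beside 0.53% of all promoter windows, and 0 lower. Once the average was taken out 7 of the 21 had all EM shuffle libraries above all WT Abf1 libraries, beside 4.7% of all promoter windows, and the median of 0.07 log2 odds was close to that of all promoters. Leaving out replicates in turn kept the SIT1 call in 2 of 4 fits, that of FET3 in 1 and that of FTR1 in 0. The highest adjusted p was 0.0687 for SIT1 (0.80 log2 odds, without EM shuffle replicate 1), 0.259 for FET3 and 0.322 for FTR1.

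MDG1, which acts in pheromone signalling, and TMA17, an assembly chaperone of the proteasome, lost accessibility that no Abf1 cells kept. MDG1 (YNL173C, chromosome XIV, 310108 to 310307, 6 CpG sites) had 57.3%, 61.2%, 58.8% and 65.8% in WT Abf1 and 38.8%, 37.2%, 38.0% and 38.0% in EM shuffle, with 63.5% and 63.4% in the no Abf1 replicates. The log2 odds ratio was -1.04 ± 0.15 against WT Abf1 (adjusted p = 0.000232) and -1.14 ± 0.14 against no Abf1 (adjusted p = 2.06e-06). TMA17 (YDL110C, chromosome IV, 265015 to 265214, 9 CpG sites) had 63.0% and 62.8% in the WT Abf1 replicates, 38.1% and 45.3% in EM shuffle, and 59.9% and 59.8% in no Abf1. It differed by -1.01 ± 0.14 from WT Abf1 (adjusted p = 9.06e-05) and by -0.74 ± 0.13 from no Abf1 (adjusted p = 0.000199). Its call was lost without EM shuffle replicate 1 (-0.74, adjusted p = 0.0687), while that of MDG1 held in all 4 such fits.

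The promoters of MDG1 and TMA17 both hold 2 matches to AGGGG on either strand, the stress response element of Msn2, given in capitals. Such a match is in 15.6% of promoter windows, in 8 of the 34 promoters called lower and in 6 of the 31 called higher.
MDG1: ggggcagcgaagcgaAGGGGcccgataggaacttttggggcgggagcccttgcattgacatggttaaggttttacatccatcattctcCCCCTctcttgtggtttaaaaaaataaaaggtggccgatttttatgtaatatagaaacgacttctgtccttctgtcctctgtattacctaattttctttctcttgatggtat
TMA17: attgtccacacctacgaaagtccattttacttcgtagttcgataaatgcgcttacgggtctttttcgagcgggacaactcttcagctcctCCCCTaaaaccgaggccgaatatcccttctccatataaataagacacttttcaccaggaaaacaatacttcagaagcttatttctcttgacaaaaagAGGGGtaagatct
In MDG1 the 4 CpG sites from 243 to 210 bp upstream, which flank the upstream match, fell together. At 228 bp upstream the EM shuffle replicates had 46.5% and 52.2% against 77.8% and 87.0% in WT Abf1, and at 105 bp upstream 21.2% and 23.3% against 34.4% and 26.4%. In TMA17 the loss was spread over all 9 sites: at 211 bp upstream EM shuffle had 43.6% and 50.6% against 74.3% and 70.5%, and at 144 bp upstream 48.0% and 64.1% against 75.0% and 71.9%.

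YLR125W, an open reading frame of unknown function, and YPT32, a small GTPase of the secretory pathway, were the other deep losses. YLR125W had 35.7% and 36.3% in the WT Abf1 replicates and 14.9% and 13.2% in EM shuffle (-1.49 ± 0.14, adjusted p = 4.00e-07), and no Abf1, at 27.8% and 28.7%, lay between them and differed from EM shuffle (adjusted p = 8.25e-05). YPT32 had 48.3% and 50.2% in WT Abf1 and 24.5% and 20.5% in EM shuffle (-1.45 ± 0.14, adjusted p = 3.37e-07), and no Abf1 was as low, at 24.0% and 25.6%. Both calls held in all 4 fits that left out a replicate. RPS19B, a protein of the small ribosomal subunit, had 75.8% and 75.9% in WT Abf1 and 59.5% and 62.8% in EM shuffle (-0.72 ± 0.16, adjusted p = 0.0168). It was called in 0 of the 4 such fits, with adjusted p from 0.0501 to 0.244. The remaining named falls were YFL066C, a subtelomeric helicase-like gene (-1.14, called in 3 of the 4 such fits), and HUA1 (-1.08, called in 1).

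ADE17, an enzyme of the last steps of purine synthesis, had the largest rise among promoters with at least 3 CpG sites. Its window (YMR120C, chromosome XIII, 509331 to 509530) had 28.7%, 32.0%, 29.3% and 35.4% in WT Abf1 and 44.0%, 43.0%, 47.7% and 50.2% in EM shuffle. The log2 odds ratio was 1.20 ± 0.18 (adjusted p = 0.000465), and it ran from 1.03 to 1.40 in the fits that left out a replicate. Capitals mark TGACTC, which Gcn4 and Bas1, the activators of amino acid and purine synthesis, can bind, and which 5.34% of promoter windows hold on either strand.
ADE17: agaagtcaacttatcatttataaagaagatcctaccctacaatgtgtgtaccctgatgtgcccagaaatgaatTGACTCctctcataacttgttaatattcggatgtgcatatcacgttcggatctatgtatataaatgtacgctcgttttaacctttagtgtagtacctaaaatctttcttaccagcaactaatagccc
The match lies from 177 to 172 bp upstream, and the rise was largest at the CpG nearest to it, at 150 bp upstream, with 44.2% and 57.3% in EM shuffle against 22.3% and 25.6% in WT Abf1. At 105 bp upstream the values were 41.5% and 40.4% against 38.7% and 40.4%, and there no Abf1 was higher, at 56.7% and 48.6%. ADE17 was the only one of the 11 purine genes tested that was called, beside 1.11% of all promoter windows.

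Other rises were in genes of several kinds. ATP14, a subunit of the mitochondrial ATP synthase, had 52.9% and 51.7% in the WT Abf1 replicates and 59.8% and 64.8% in EM shuffle (0.87 ± 0.17, adjusted p = 0.00723), against 45.7% and 45.3% in no Abf1 (1.34 log2 odds, adjusted p = 6.35e-07). COX8, a subunit of cytochrome c oxidase, had 74.9% and 72.8%, and 83.1% and 82.9% (1.07 ± 0.23, adjusted p = 0.0165). BBC1, of the cortical actin patch, rose from a low level: 11.1% and 8.5%, and 17.3% and 15.4% (1.18 ± 0.26, adjusted p = 0.023). IES1, of the INO80 remodelling complex (0.89), NOP13, a nucleolar protein (0.86), and VVS1 (0.86) were also called. Leaving out replicates in turn kept the call of ATP14 in 1 of 4 fits and that of COX8 and BBC1 in 0, with adjusted p up to 0.226, 0.18 and 0.277. It kept that of IES1 in 1 (0.65 to 1.26 log2 odds), that of NOP13 in 1 and that of VVS1 in 2.

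Of the 23 gene lists, 15 had no called promoter. Among 138 cytosolic ribosomal protein genes, which Rap1 and other general regulatory factors serve, 2 were higher (RPS20 at 0.74 and RPS21A at 0.58 log2 odds) and RPS19B was lower, so 3 of 138 stand beside 1.11% of all promoters. Histone genes had 1 call, CSE4, the centromeric histone H3 (0.52), of 11. CSE4 and RPS21A lie on chromosome XI. None of the calls of RPS20, RPS21A and CSE4 held in a fit that left out a replicate, with adjusted p up to 0.298, 0.418 and 0.439, and none was made with the average left in (adjusted p = 0.102, 0.159 and 0.195). None of 34 proteasome, 65 mitochondrial ribosomal protein, 17 glycolysis, 19 Msn2 stress or 14 phosphate genes was called. The medians of the lists ran from -0.18 to 0.25 log2 odds.

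Start windows, over the first nucleosome, were called lower at several subtelomeric genes. COS5, of a family of membrane proteins encoded near chromosome ends, had 50.4% and 50.8% in the WT Abf1 replicates, 24.4% and 33.5% in EM shuffle and 51.7% and 52.6% in no Abf1 (-1.07 ± 0.15, adjusted p = 2.12e-05). COS2 had 38.2% and 36.3%, and 21.7% and 21.1% (-0.85 ± 0.13, adjusted p = 0.000121), and COS1 had 39.0% and 38.5%, and 25.5% and 21% (-0.75 ± 0.17, adjusted p = 0.0258). The calls of COS5 and COS2 held in all 4 fits that left out a replicate, and that of COS1 in 0. YRF1-2, a helicase gene of the Y' repeats, was called lower in the start window (-0.69) and the gene body (-0.45), and each call held in 1 of those 4 fits. Within 30 kb of a chromosome end, 7 of 368 start windows were lower (1.9%) and 0 higher, beside 8 and 9 of the 5508 elsewhere. Among promoter windows 8 of the 367 near an end were lower and 1 higher, beside 26 and 30 of the 5479 elsewhere. The median start window near an end was at -0.02 log2 odds against 0.02 elsewhere. COS and YRF1 genes have near-identical copies, among which reads can be placed wrongly, and their values are uncertain for that reason.

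Elsewhere the start window of DSL1, a vesicle tether of the endoplasmic reticulum, rose from 14.4% and 14.8% to 21.7% and 20.8% (0.94 ± 0.19, adjusted p = 0.00693), and no Abf1 was higher still at 31.4% and 31%. CAR1, the arginase, had 53.7% and 50.3% in WT Abf1 and 57.4% and 61.4% in EM shuffle (0.71 ± 0.16, adjusted p = 0.0272). ARO3, of aromatic amino acid synthesis, fell from 33.0% and 31.2% to 19.3% and 16.5% (-0.82 ± 0.20, adjusted p = 0.0434), and no Abf1 had 20.2% and 24.5%. None of these 3 calls held in a fit that left out a replicate. In gene bodies ARG80, a regulator of arginine metabolism, had 59.8% and 57.1% in WT Abf1 and 44.1% and 38.0% in EM shuffle (-0.73 ± 0.12, adjusted p = 1.75e-06). The dubious frame YDR215C had 60.9% and 55.8%, and 43.4% and 35.8% (-0.77 ± 0.13, adjusted p = 3.18e-06). Both SEs and adjusted p rest on a dispersion moderated over all gene body windows and need not reflect the spread of these replicates. With a replicate left out, the log2 odds ratio ran from -0.90 to -0.57 for ARG80 and from -1.03 to -0.60 for YDR215C.

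SRP40, a serine-rich nucleolar protein, had the largest difference of all called gene bodies. The gene (YKR092C) lies on the minus strand of chromosome XI from 612665 to 613885. Over its body window methylation was 21.6% and 16.8% in the WT Abf1 replicates, 16.3% and 18.1% in no Abf1, and 29.3% and 56.6% in the EM shuffle replicates, so that the 2 EM shuffle replicates differed from each other more than the lower of them from WT Abf1. The aliquots of a replicate were close: 27.0% and 31.6% in EM shuffle replicate 1, and 54.2% and 57.7% in replicate 2. The log2 odds ratio was 2.11 ± 0.10 (adjusted p = 7.93e-91). That SE and adjusted p rest on a dispersion moderated over all gene body windows. They do not reflect the gap between the 2 EM shuffle replicates. The log2 odds ratio was 1.09 without EM shuffle replicate 2. Coverage of SRP40 was 2.08 of the nuclear median in EM shuffle replicate 2 and 0.916 to 1.2 in the other preparations, as over the rest of chromosome XI, and its part in the difference was not tested.

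**Figure D4:**
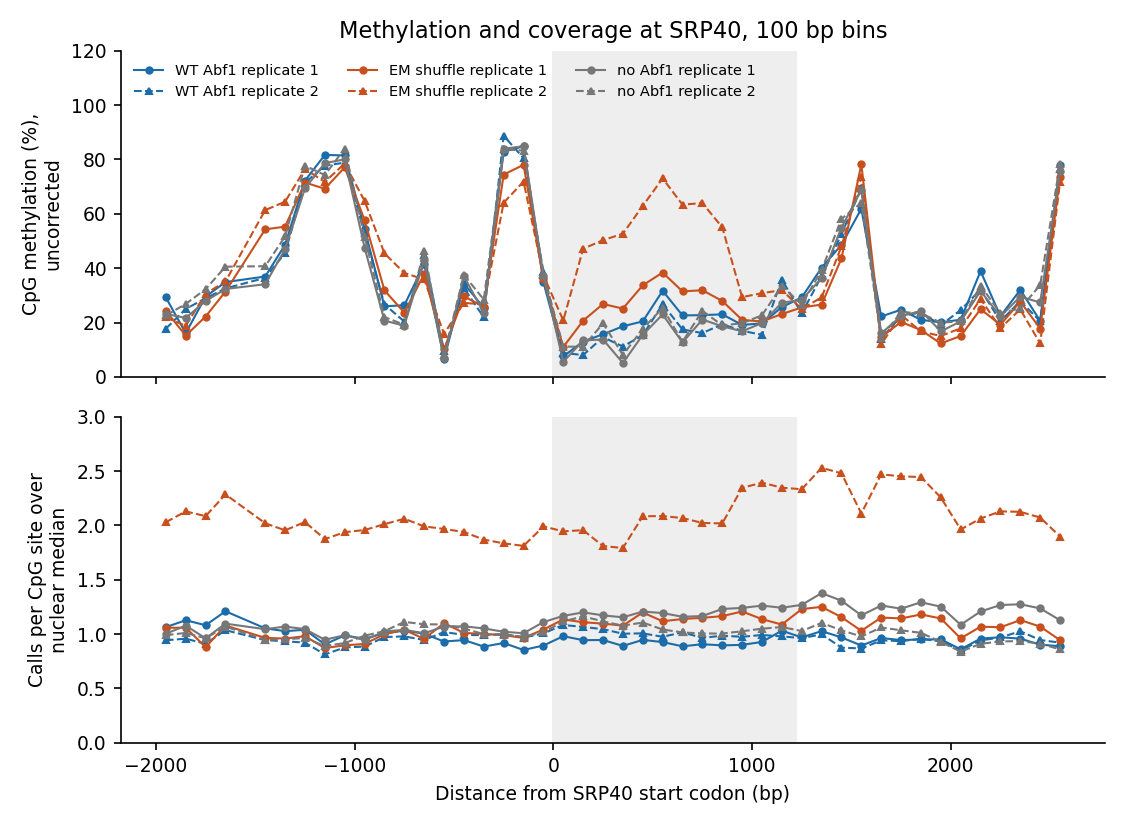
CpG methylation (percent, without the correction factor, top) and coverage relative to the nuclear median (bottom) by distance from the SRP40 start codon (bp) in bins of 100 bp, 1 line per replicate of WT Abf1, EM shuffle and no Abf1, with the coding sequence shaded. In EM shuffle replicate 2 the body rises to 73.0% while the promoter falls to 71.9%, and coverage of that replicate is near 2 over the whole stretch.

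From 400 to 499 bp into SRP40 the values were 20.4% and 15.4% in WT Abf1 and 33.7% and 62.9% in EM shuffle. The difference was gone at the end of the gene: from 1200 to 1299 bp they were 29.2% and 23.3%, and 25.5% and 25.0%. In the promoter, from 200 to 101 bp upstream, the EM shuffle replicates were lower, at 78.0% and 71.9% against 84.9% and 80.5%. A second raised stretch lay in the 100 bp that begin 1500 bp upstream, with 36.9% and 36.5% in WT Abf1 and 54.3% and 61.4% in EM shuffle.

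Of the tiles called, the ZRT1, ZRT2 and YLR125W tiles repeated the promoter losses (-1.02, -0.59 and -0.87 log2 odds, called in 4, 2 and 3 of the 4 fits that left out a replicate), and that at YER053C-A, a small open reading frame, was lower as well: 52.7% and 54.8% in WT Abf1, 38.8% and 37.4% in EM shuffle, and 53.1% and 55.1% in no Abf1 (-0.65 ± 0.11, adjusted p = 5.59e-06). Among rises, the tile at HSF1, the heat shock transcription factor, had 40.8% and 38.2% in WT Abf1 and 42.3% and 43.8% in EM shuffle (0.49 ± 0.09, adjusted p = 7.27e-05). It did not pass the test with the average left in (adjusted p = 0.067). In tiles too, SE and adjusted p rest on a dispersion moderated over all tiles.

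The ribosomal DNA did not share the general loss in both replicates. Over its 697 covered CpG sites, methylation was 49.3% and 47.1% in WT Abf1, 47.1% and 50.5% in EM shuffle, and 48.7% and 50% in no Abf1, so EM shuffle and WT Abf1 overlapped, while over the rest of the genome they had 29.3% and 26.7% against 24.6% and 24.1%. The rDNA was covered at 45.6 to 61.4 times the nuclear median, since its many copies map to the few in the reference. With the average taken out 15 of its 17 tiles were called higher, by 0.16 to 0.44 log2 odds, and 2 were not called (-0.04 and 0.01). The promoter of TAR1, a gene antisense to the large rRNA, was called higher too (0.40 log2 odds in its promoter, with 61.6% and 59.6% in WT Abf1 and 62.0% and 63.3% in EM shuffle, adjusted p = 1.02e-08). At such depth the test calls small differences, and the dispersion behind it was moderated over all windows of a class.

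Abf1's own sites were examined at the 828 promoter matches to its consensus, which ends in a fixed CpG, so that protection by a bound factor can be read at the site itself. A match need not be bound. Methylation of that CpG was 38.6% and 39.0% in WT Abf1, 40.7% and 41.4% in EM shuffle, and 52.6% and 52.8% in no Abf1. It was therefore 2.26 points higher in EM shuffle than in WT Abf1 (exact permutation p = 0.333, replicates apart), although the genome average was lower, and 8.33 points higher with the factor. With each construct divided by its own factor, EM shuffle had 46.7% and 47.5% and no Abf1 had 50.5% and 50.7%. EM shuffle thus lay between WT Abf1 and no Abf1 both ways. Which of them it lay nearer to depends on the factor: WT Abf1 without it and no Abf1 with it. At 50 of the 828 matches all 4 EM shuffle libraries were above all 4 WT Abf1 libraries, and at 11 they were below, which is 6.04% and 1.33% of them. Of the 73253 covered CpG sites from 50 to 500 bp before start codons, 0.956% had the EM shuffle libraries all above and 9.29% all below.

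The matches with the largest differences in each direction among those are shown, 5′ to 3′ on the strand of the match, with the CpG that was measured in capitals.
PRX1: gtcgctattcaCG
ATP14: atcgccatacaCG
RPF1: atcatgtgtgaCG
PML39: gtcattcggaaCG
IAT4: atcacagcagaCG
LYS21: atcacacacaaCG
YOR343W-A: atcgtttatcaCG
LEO1: gtcacccgtaaCG
In the first 4 the CpG was more methylated in EM shuffle. PRX1, a mitochondrial peroxiredoxin, went from 47.4% to 74.2% (72.0% in no Abf1) and ATP14 from 25.1% to 46.2% (43.2%). In the last 4 it was less methylated. LEO1, of the Paf1 complex, went from 80.1% to 68.9% (61.9% in no Abf1), and IAT4 from 43.1% to 24.5% (42.3%). These were chosen by their differences, and no test was made.

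**Figure D5:**
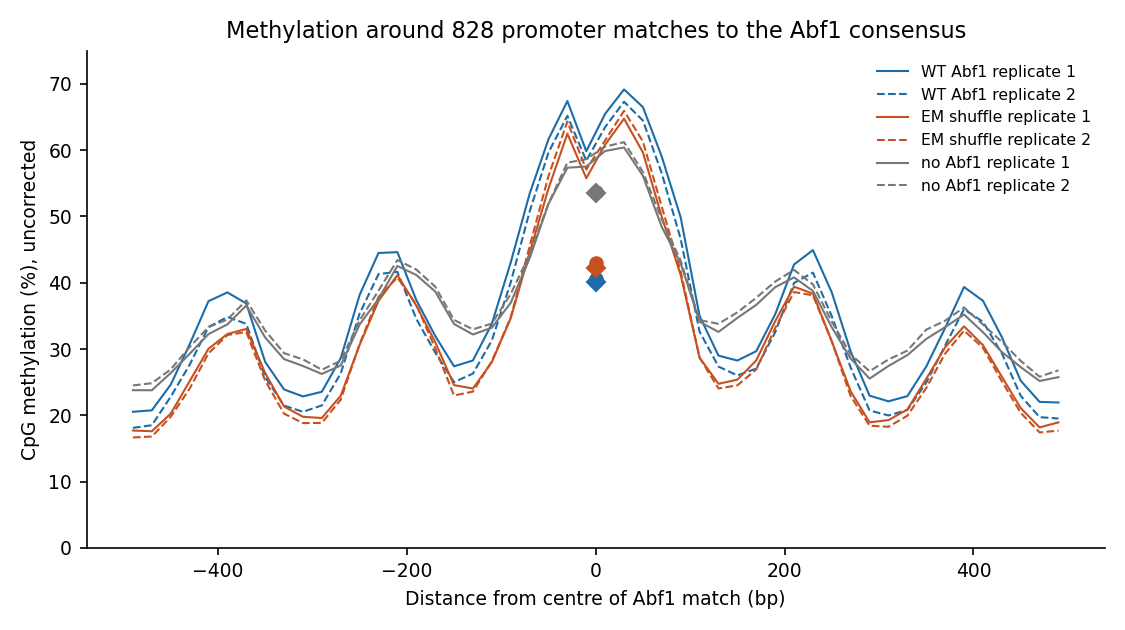
CpG methylation (percent, without the correction factor) by distance from the centre of 828 promoter matches to the Abf1 consensus (bp, 20 bp bins, oriented by the match), 1 line per replicate of WT Abf1, EM shuffle and no Abf1, with diamonds (replicate 1) and circles (replicate 2) for all CpG sites within the matches. Without the factor, EM shuffle (42.2% and 42.9%) lies inside the matches close to WT Abf1 (40.1% and 40.6%) and below no Abf1 (53.5% and 53.7%).

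Around the matches, the first nucleosome and linker lay nearer to the site in EM shuffle than in WT Abf1, and the next ones did not. These measures were chosen after the profiles were seen and are given with no test. Positions were read with both sides of the match averaged, in bins of 5 bp that were each the mean over 5 bins. Shifts of a few bins are thus near the resolution. The first methylation trough, the centre of the flanking nucleosome, was 147 bp from the match in both WT Abf1 replicates. This trough was at 137 bp in both EM shuffle replicates and at 127 bp in both no Abf1 replicates. The linker behind it was at 227 bp in WT Abf1 and at 212 bp in EM shuffle and no Abf1. The second trough was at 302 bp and the second linker at 392 bp in all 4 replicates of WT Abf1 and EM shuffle, and at 297 and 372 bp in no Abf1. The height of the first linker over the first trough was 16.9 and 16 points in WT Abf1, 15.9 and 16.1 in EM shuffle, and 9.08 and 9.29 in no Abf1. From 20 to 60 bp from the match, methylation was 65.7% and 63.7% in WT Abf1, 59.8% and 61.4% in EM shuffle, and 56.1% and 56.7% in no Abf1. Without the factor, the replicates of EM shuffle and WT Abf1 thus overlapped in the height of the first linker. In position, the first trough of EM shuffle lay between those of WT Abf1 and no Abf1. Division by the factor, which raises every EM shuffle level and height in proportion, was not applied to these measures. The order of the constructs in levels and heights holds only without it.

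Matches to the Abf1 consensus were in 11.6% of promoter windows, in 6 of the 34 called lower and in 7 of the 31 called higher. TTACCCG, which the general regulatory factor Reb1 binds, was searched on either strand and was in 7.13% of windows, in 0 of the 34 and in 5 of the 31. A match is a description of the sequence and not of binding.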

How the data were processed

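ODM-seq libraries of 3 constructs were used, 4 of WT Abf1 and 4 of EM shuffle compared, with 4 of no Abf1 in the fits to share the spread. The authors called 5-methylcytosine on Nanopore reads, aligned them to sacCer3 (R64) with spike-in plasmids, and deposited for each CpG position and strand a methylated fraction, an occupancy score (1 minus that fraction), a coverage count and a correction ratio (0.871 for EM shuffle, by which the fraction had been divided, so that 1.22% to 1.63% of positions exceed 1). The submitters' processing notes name minimap2 2.17, SAMtools 1.9 and 1.15 and R 4.2.0. Fraction times ratio times coverage gave whole methylated calls at 100% of positions (the fraction matched a whole number of calls within 6e-05). Calls of both strands, and of the 3 h and 4 h aliquots of a replicate, were summed. Nuclear calls ranged from 13253872 to 37756743 per library. Sites needed 5 calls in every library, promoter and start windows 2 sites, gene bodies 3 and tiles 5. At a median of 32 to 94 calls per site a single CpG is imprecise, so windows were tested and single sites described. Intervals and errors do not cover steps before sequencing.

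Per window, methylated and unmethylated calls (pseudocount 0.5) of the 6 replicates were fitted with a quasi-binomial logistic model with an offset for the genome average of each construct. The squeezeVar function of limma 3.58.1 (R 4.3.3) moderated the dispersion over all windows of a class. The SE and p of a window therefore need not reflect the spread of its own replicates. P-values were two-sided and Benjamini-Hochberg adjusted over all windows of a class, and adjusted p under 0.05 was called. The model was also run on simulated data with the same dispersion in every window, which cannot show how it fares where dispersion differs between windows. Single values were compared by exact two-sided permutation over replicates. Python 3.11.15, NumPy 2.4.6, pandas 2.3.3, SciPy 1.17.1 and matplotlib 3.10.9 were used. In each class the 8 largest rises and falls among called windows with at least 3 sites and non-overlapping libraries were named, with called members of the lists. Members and lists were chosen with earlier results of these data known. Abf1 matches were searched at distances of 50 to 500 bp before start codons. Sequences are from RefSeq, R64. Alternatives were the scaling, the factor, the aliquots, window sizes, coverage minimum, replicate block and left-out replicates.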

Additional observations from a re-analysis of the deposited data

Results flagged for a closer look

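The spike-in plasmids, which no comparison above used, were more methylated in the libraries labelled EM shuffle. Plasmid pUC19-ftz, added during the incubation, averaged 94.58% at 3 h and 93.78% at 4 h in EM shuffle, against 83.9% to 84.4% in the 4 WT Abf1 libraries. Plasmid pFMP233, added after 3 h to the aliquot that was incubated on, averaged 87.86% at 3 h and 86.97% at 4 h in EM shuffle. In WT Abf1 it had 36.1% and 36.4% at 3 h and 67.7% and 65.7% at 4 h. The calls on pUC19-ftz numbered 26488 to 69978 in the EM shuffle libraries and 502906 to 883266 in WT Abf1, and those on pFMP233 at 3 h were 7127 and 6691 in EM shuffle. The mitochondrial genome had 73.9% to 77.5% in the WT Abf1 libraries and 63.2%, 67.8%, 70.6% and 73.7% in EM shuffle.

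Dixon's test was applied to 130 groups of 4 libraries, each the 3 h and 4 h aliquots of both replicates. Chance gives about 1 flag in 20 for independent values. Aliquots of a replicate are not independent and the windows were mostly chosen by their values, so that rate does not hold here. In 7 groups a library's gap to the nearest other took up most of the range of the group, past the 95% critical value. In WT Abf1 these were the COX8 promoter in replicate 2 at 3 h (71.37% against 74.6% to 74.9%), the SRP40 start window in replicate 1 at 4 h (16.03% against 9.95% to 10.51%) and the 1 kb tile at APE1 in replicate 2 at 3 h (32.05% against 35.4% to 35.8%). In EM shuffle they were the VVS1 promoter in replicate 1 at 3 h (43.75% against 34.0% to 35.6%), the COS1 start window in replicate 1 at 4 h (28.81% against 20.95% to 21.18%), the YGR146C-A start window in replicate 2 at 4 h (58.68% against 48.9% to 49.7%) and the tile at BNA5 and EST1 in replicate 1 at 3 h (28.45% against 23.8% to 24.5%).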

How the results depend on the processing

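The correction factor decides the sign at the promoter peak: -3.13 points became 5.05 with it. With it the gene body difference was -0.589, the array height difference -0.287, the accessibility slope 0.203 and the CpG inside Abf1 matches 8.33. Counts of called promoter, start, body and tile windows were 542, 303, 1681 and 2849 with no offset. They were 1582 (1491 higher, 91 lower), 77, 74 and 181 with limma on corrected fractions, and 799, 446, 1911 and 5499 with limma on uncorrected ones. An offset per replicate gave 42 start windows and 126 tiles. The 3 h aliquots alone gave 15, 8, 5 and 29, the 4 h aliquots 13 promoter, 6 start and 6 body windows, and 500-bp tiles 118. Each left-out replicate gave 17 to 27, 7 to 18, 4 to 11 and 22 to 43. The replicate block gave 67, 29, 8 and 34 and ended 3 of the 63 named calls; deviations of same-numbered replicates correlated at 0.0074 to 0.023, so the numbers share only a name. Leaving out a replicate moved the peak difference between -3.98 and -2.28, the body difference between -5.12 and -2.41, the array height difference between -1.74 and -1.27, the slope between 0.026 and 0.136, the chromosome XI difference between 0.092 and 0.139, and the CpG difference between 1.91 and 2.61. The slope was 0.195 from total calls and 0.17 with tiles grouped by WT Abf1 replicate 2, and 0.055 grouped by replicate 1. The chromosome XI difference was 0.155 at 3 h, 0.0761 at 4 h and 0.0337 from total calls. Of the 63 named calls none reversed in these alternatives, 17 held in all 4 fits that left out a replicate and 14 in none. The cause of these changes was not tested. Depth limits single CpG sites, and 2 replicates limit every value compared between constructs.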
